A study of Mus musculus with 4 samples.

Results

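Transforming growth factor beta (TGF-beta) signalling was described in brain macrophages through 9 genes chosen by symbol: the ligand Tgfb1, its surface anchor Nrros, the receptors Tgfbr1 and Tgfbr2, the signal carriers Smad2 and Smad3, and the inhibitors Smad7, Ski and Skil. All 9 were found, each in 1 row, among the 32285 genes listed in the files. The cells were CD45+ cells sorted from the brains of wild-type C57Bl/6 mice on day 3 after surgery, with CD45 being a surface protein shared by leukocytes. Young mice (3 to 6 months) and aged mice (18 to 20 months) underwent cardiac arrest (CA), brought on with potassium chloride and followed by resuscitation, or sham surgery, which has the same steps without the arrest. Each of the 4 groups (young and aged, sham and CA) was 1 library pooled from 3 mice that cannot be told apart in the files. No value therefore has a replicate spread and no difference between groups was tested. The 95% intervals given throughout hold counting error alone, and how much the mice of a pool varied was not measured.

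TGF-beta1 is made in a latent form, and in microglia, the resident macrophages of the brain, the latent ligand is tethered to the cell surface by the protein that Nrros encodes until an integrin frees it. The free ligand is bound by the type II receptor (Tgfbr2), which recruits and phosphorylates the type I receptor (Tgfbr1), and this kinase phosphorylates Smad2 and Smad3, which enter the nucleus with Smad4. Smad7 blocks the type I receptor and is itself induced by the pathway, while Ski and Skil (SnoN) are co-repressors that hold Smad complexes silent. In microglia the pathway is known for keeping up the genes that set these cells apart from other macrophages.

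Values are given in the order young sham, then young CA, aged sham, aged CA unless the libraries are named. The libraries held 9038, 10794, 7700 and 6794 barcodes, of which 8123, 9919, 6570 and 5751 were kept. Depth differed: the median per microglial cell was 6975, 9730, 3807 and 10578 unique molecular identifiers (UMIs, counted molecules). Aged sham stood apart, with the lowest depth and 717 CPM (UMIs per 1000000 UMIs of the cells summed) of haemoglobin transcripts over its kept cells, against 1.01 to 56.0 CPM in the others. Any pair of libraries shared 15 to 32 barcodes, at most 0.416% of a library. Cells were assigned to classes by marker UMIs, and none of the 9 genes was a marker. Microglia numbered 7737, 9201, 5380 and 5027 cells, border-associated macrophages, which line the vessels and coverings of the brain, 76, 56, 28 and 68, and monocytes or monocyte-derived macrophages 15, 359, 22 and 60. Gated microglia carried 4913 to 7668 CPM of C1qa and 1660 to 3003 CPM of Csf1r, macrophage genes that the gate did not use, and 0.148 to 4.36 CPM of the T cell gene Cd3e.

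The 250 bases upstream of the start site are given for 4 genes on which the comparisons of macrophages turn, read 5′ to 3′ on the strand of the gene from RefSeq's GRCm38.p6 table. Capitals mark CAGAC, the sequence that Smad3 and Smad4 bind, searched also as GTCTG on the other strand. The windows are Tgfbr1 at chr4:47352972-47353221 (plus strand), Tgfbr2 at chr9:116175364-116175613 (minus), Smad3 at chr9:63757995-63758244 (minus) and Nrros at chr16:32165595-32165844 (minus).
Tgfbr1: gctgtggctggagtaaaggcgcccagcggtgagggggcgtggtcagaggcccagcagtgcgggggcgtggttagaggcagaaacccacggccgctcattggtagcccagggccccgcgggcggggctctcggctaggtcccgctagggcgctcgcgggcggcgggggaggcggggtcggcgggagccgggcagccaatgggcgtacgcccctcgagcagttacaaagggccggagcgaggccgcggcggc
Tgfbr2: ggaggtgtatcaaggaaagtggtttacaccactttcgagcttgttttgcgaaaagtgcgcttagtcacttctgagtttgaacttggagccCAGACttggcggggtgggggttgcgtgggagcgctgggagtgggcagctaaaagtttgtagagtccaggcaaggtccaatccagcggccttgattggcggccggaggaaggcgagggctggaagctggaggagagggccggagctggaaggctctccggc
Smad3: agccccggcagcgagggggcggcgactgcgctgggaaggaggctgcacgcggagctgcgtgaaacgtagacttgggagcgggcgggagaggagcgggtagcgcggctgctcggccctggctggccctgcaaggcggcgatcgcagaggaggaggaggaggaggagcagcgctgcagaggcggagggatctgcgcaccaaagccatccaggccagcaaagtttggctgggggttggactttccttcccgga
Nrros: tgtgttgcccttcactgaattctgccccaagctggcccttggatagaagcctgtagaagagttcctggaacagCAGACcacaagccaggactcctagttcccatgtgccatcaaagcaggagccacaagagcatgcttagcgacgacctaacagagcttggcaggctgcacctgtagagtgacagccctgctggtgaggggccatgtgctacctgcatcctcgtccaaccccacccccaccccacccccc
The table matched 6 of the 9 genes with 7 windows, since Tgfbr1 has 2 start sites, and held no entry for Skil, Smad2 or Smad7. CAGAC or GTCTG was found in 3 of the 7 windows: 160 bases upstream in Tgfbr2, 177 bases upstream in Nrros, and 203 bases upstream of the second start of Tgfbr1. Of 32851 windows of this length in the table, 42.2% held it. GAGGAA or its other strand TTCCTC, read by the macrophage factor PU.1, was found in 2 of the 7 windows (Tgfbr2 and the second start of Tgfbr1), against 23.3% of all windows.

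The 9 genes are protein coding, lie on 6 chromosomes of GRCm38 and overlap no other annotated gene (GENCODE M21). Tgfb1 (ENSMUSG00000002603) is at chr7:25687002-25705077, Nrros (ENSMUSG00000052384) at chr16:32142785-32165594, Tgfbr1 (ENSMUSG00000007613) at chr4:47353222-47414931 and Tgfbr2 (ENSMUSG00000032440) at chr9:116084293-116175360. Smad2 (ENSMUSG00000024563) is at chr18:76241580-76310963, Smad3 (ENSMUSG00000032402) at chr9:63646767-63757994 and Smad7 (ENSMUSG00000025880) at chr18:75367529-75395935. Ski (ENSMUSG00000029050) is at chr4:155154075-155222592 and Skil (ENSMUSG00000027660) at chr3:31095058-31122577. Smad3 spans 111 kb, Tgfbr2 91.1 kb and Tgfb1 18.1 kb, and the other 6 span 22.8 to 69.4 kb.

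After CA, microglia held a smaller share of transcripts of the ligand, its anchor, both receptors and both signal-carrying Smads at both ages, and Ski was the exception among the 9 genes. At both ages 8 of the 9 had a CA to sham ratio below 1 beyond counting error, although for Skil in young mice another scaling, described with the inhibitors, removed the difference. At this depth small differences pass counting error, and the share of all genes below 1 by this measure was not counted. The median log2 ratio of the 9 was -0.38 in young and -0.61 in aged microglia, where all genes with at least 10 CPM in 1 of the 2 libraries had medians of -0.07 and 0.03. Ratios of at least 1.5-fold, the size used here to call a gene lower or higher, were reached by 2 genes in young (Tgfbr1 and Smad3, both lower) and by 5 in aged (Tgfbr1, Smad3, Nrros, Smad7 and Tgfb1, all lower). The aged call of Tgfb1 was lost under 3 of 12 alternatives: its log2 ratio, -0.61 as reported, was -0.47 with scaling by trimmed mean of M-values (TMM), -0.52 without mitochondrial and ribosomal genes in the total and -0.57 as a mean over cells. Of all measured genes, 24.0% were called in young and 35.2% in aged microglia in either direction, and 10.7% and 18.2% were called lower. The young and the aged comparison share no library.

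**Figure D1:**
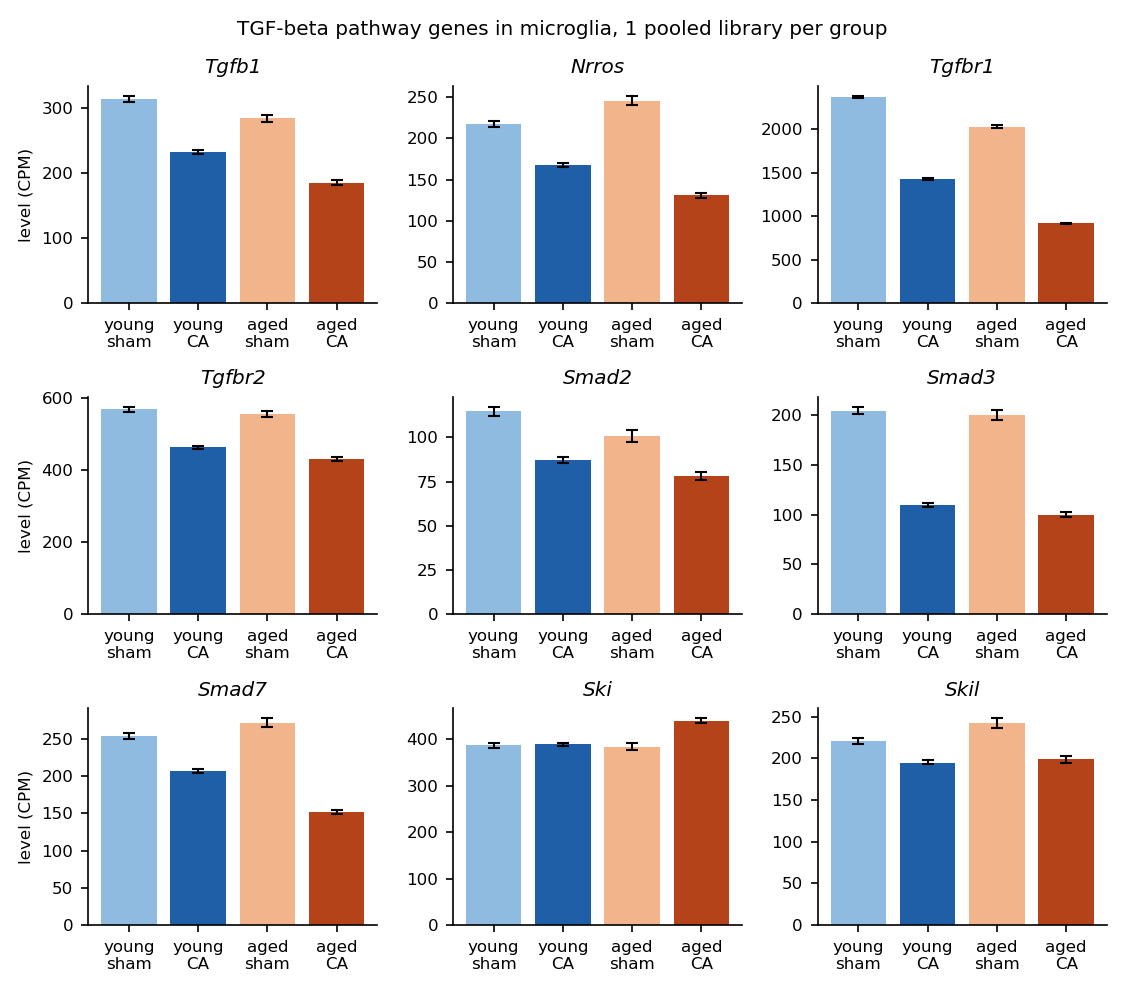
Level of each gene in gated microglia, in CPM, with 1 bar per library and exact Poisson 95% intervals, which cover counting error only. Both CA bars stand below both sham bars for Tgfb1, Nrros, Tgfbr1, Tgfbr2, Smad2, Smad3, Smad7 and Skil (for Skil in young mice the log2 ratio was 0.01 with TMM scaling), and Ski is highest in aged CA at 439 CPM.

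The ligand and its anchor came first. Tgfb1, the ligand, stood in microglia at 314 CPM in young sham against 233 in young CA, and at 284 in aged sham against 185 in aged CA. Both CA libraries lay below both sham libraries, and aged CA was lowest. The CA to sham ratio of Tgfb1 was 0.743 (0.729 to 0.757) in young and 0.654 (0.636 to 0.673) in aged. Nrros, which anchors the latent ligand, stood at 217, 168, 245 and 131 CPM. Its ratio was 0.771 (0.754 to 0.788) in young and 0.532 (0.516 to 0.549) in aged, so Nrros was highest in aged sham and lowest in aged CA. Each cell of at least 2000 UMIs was thinned to 2000 UMIs, and shallower cells were left out of all thinned shares. This left out 236, 388, 1312 and 134 microglia, most in aged sham. The thinned share of microglia with at least 1 Nrros UMI was 34.6%, 28.1%, 37.8% and 23.0%. For Tgfb1 it was 43.1%, 34.7%, 40.3% and 29.5%. Unthinned shares, over all gated microglia, were 58.8% to 70.1% for Nrros and 61.5% to 76.5% for Tgfb1. They were lowest in aged sham, the shallowest library, and highest in young sham. In neurons, which should lack Nrros, the thinned share was 1.95% to 6.32%, at median depths of 4165 to 34744 UMIs per neuron.

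Other ligands of the TGF-beta type were close to undetected in microglia. Tgfb2 stood at 0.536 to 1.79 CPM and Tgfb3 at 0.0692 to 0.304 CPM over the 4 libraries. In border-associated macrophages Tgfb2 had 4 UMIs in young sham and 0 in the other 3 libraries, where 0 UMIs allow up to 4.81 to 9.51 CPM, and Tgfb3 had 0 in all 4. None of the 10 other family ligands listed reached 10 CPM in microglia in any library of the CA comparisons.

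Tgfbr1, the type I receptor kinase, differed more between CA and sham than Tgfbr2. It stood in microglia at 2366 CPM in young sham against 1429 in young CA, and at 2030 in aged sham against 917 in aged CA. Both sham libraries lay above both CA libraries, and aged CA lay below young CA. Its ratio was 0.604 (0.60 to 0.608) in young and 0.452 (0.447 to 0.457) in aged. Thinned to 2000 UMIs, 96.9%, 86.9%, 93.2% and 76.9% of microglia had a Tgfbr1 UMI, against 7.47% to 30.0% of neurons, and the unthinned microglial shares were 99.0%, 97.7%, 93.6% and 96.3%. Tgfbr2, the ligand-binding type II receptor, stood at 568, 463, 556 and 430 CPM, and its ratios were 0.816 (0.805 to 0.828) in young and 0.774 (0.759 to 0.789) in aged. The receptor pair thus differed in size of response: Tgfbr2 was not called at either age and Tgfbr1 was called at both.

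Smad3 and Smad2, the receptor-activated Smads, also differed from each other. Smad3 stood at 204 CPM in young sham against 110 in young CA, and at 200 in aged sham against 100 in aged CA, with ratios of 0.537 (0.523 to 0.551) in young and 0.501 (0.484 to 0.519) in aged. The 2 sham values lay close together, as did the 2 CA values. Smad2 stood at 115, 87.1, 101 and 78.1 CPM, with ratios of 0.759 (0.736 to 0.783) and 0.776 (0.742 to 0.812), and was not called at either age. Thinned shares of microglia with a Smad3 UMI were 31.8%, 19.5%, 30.7% and 17.9%.

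The inhibitors did not move alike. Smad7, the inhibitory Smad, stood at 254 CPM in young sham against 207 in young CA, and at 272 in aged sham against 152 in aged CA, with ratios of 0.814 (0.797 to 0.831) in young and 0.560 (0.543 to 0.576) in aged. Skil stood at 221, 195, 243 and 199 CPM, with ratios of 0.884 (0.865 to 0.904) and 0.820 (0.797 to 0.844). Ski stood at 387, 389, 384 and 439 CPM, with a young ratio of 1.0 (0.987 to 1.02) and an aged ratio of 1.14 (1.12 to 1.17). Ski was thus the one gene of the 9 at or above its sham level at both ages. TMM scaling, which sets a reference over many genes, added 0.19 to every young and 0.14 to every aged log2 ratio of microglia. With it the young log2 ratio of Skil was 0.01 in place of -0.18, that of Ski 0.19 in place of 0.00, and that of Smad3 -0.71, and the young count of called genes was 1 (Smad3) in place of 2.

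**Figure D2:**
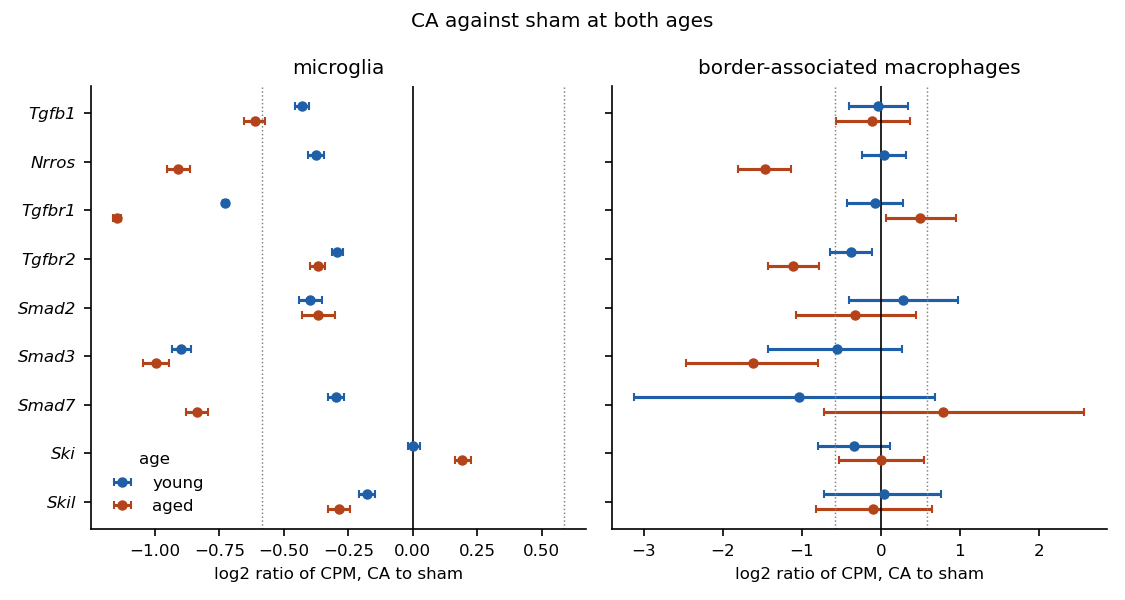
Log2 ratio of CA to sham for each gene in microglia and in border-associated macrophages, by age, with exact 95% counting intervals, and dotted lines at 1.5-fold. In microglia the aged points of Nrros, Tgfbr1 and Smad7 lie left of their young points. In border-associated macrophages Nrros, Tgfbr2 and Smad3 lie beyond the left line at the aged point. Smad7 lies there beyond the left line at the young point (0.488, 0.115 to 1.61) and beyond the right line at the aged point (1.72, 0.608 to 5.96).

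The ratio of the aged to the young response gives the difference between ages with its counting interval. In microglia this was lowest for Smad7 (0.688, 0.663 to 0.713), Nrros (0.691, 0.664 to 0.718) and Tgfbr1 (0.748, 0.738 to 0.758), which stood further below sham in aged. For Tgfb1 it was 0.880 (0.851 to 0.910), for Skil 0.927, for Smad3 0.934 and for Tgfbr2 0.948. Smad2 had 1.02 (0.968 to 1.08), an interval that includes no difference, and Ski 1.14 (1.11 to 1.17). With 1 library per group these intervals compare libraries, and mouse to mouse variation was not measured.

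The 9 genes differed little between the ages in sham microglia. None of them was called between aged and young sham, where 7.05% of all genes were, and their ratios ran from 0.858 (0.850 to 0.866) for Tgfbr1 to 1.13 (1.10 to 1.16) for Nrros. After CA, Tgfbr1 was the one gene of the 9 called between the ages, at 0.642 (0.635 to 0.648) of its young CA level, against 16.2% of all genes called and 8.85% called lower. Smad7 followed at 0.736 (0.717 to 0.754), Nrros at 0.780 and Tgfb1 at 0.795, while Skil stood at 1.02 (0.995 to 1.04). These age comparisons use the same libraries as the CA comparisons and are not independent of them.

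Gene length moved with the CA response of all genes. Among measured genes of microglia in young mice the median log2 ratio was 0.16 for genes under 20 kb, -0.08 from 20 to 50 kb, -0.24 from 50 to 100 kb and -0.33 above 100 kb. In aged mice these medians were 0.17, 0.09, -0.05 and -0.38. Tgfbr1, in the 50 to 100 kb class, had log2 ratios of -0.73 and -1.15, and Smad3, above 100 kb, -0.90 and -1.0, while Nrros (20 to 50 kb) had -0.38 and -0.91. Ski, at 68.5 kb, had 0.00 and 0.19. Mitochondrial transcripts took a higher median share of a microglial cell's UMIs after CA, at 2.60% against 1.73% in young and 3.71% against 1.95% in aged. The part of length and of mitochondrial share in the ratios of the 9 genes was not tested.

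Within a library, microglia were next split by the summed level of the 12 microglial gate markers, and the 25% of cells with the highest sum were set against the 25% with the lowest, among cells of at least 3000 UMIs. For Tgfbr1 the order of the 2 ends was opposite in sham and CA. In young sham it stood at 2130 CPM in the high-marker and 2636 in the low-marker cells (ratio 0.808, 0.795 to 0.821), and in aged sham at 1905 and 2195 (0.868, 0.847 to 0.889). In young CA the high-marker cells had 1585 and the low-marker cells 1197 CPM (1.32, 1.3 to 1.35), and in aged CA they had 1023 and 766 CPM (1.34, 1.3 to 1.37). Smad3 had the same order, with ratios of 0.645 and 0.839 in young and aged sham and 1.21 and 1.3 in young and aged CA, and so did Tgfbr2, with 0.928 and 0.917 in sham and 1.21 and 1.37 in CA. Tgfb1 was higher in high-marker cells in all 4 libraries (1.16 to 1.47), as was Smad7 (1.07 to 1.59). Nrros ran from 0.877 in young sham to 0.986 in aged CA. In the high-marker cells Tgfbr1 was still lower in both CA libraries than in the sham library of the same age. High-marker cells had median depths of 9536, 11132, 8312 and 10655 UMIs and low-marker cells 4816, 9378, 4807 and 10189 over the 4 libraries, and the part of depth in these orders was not tested.

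**Figure D3:**
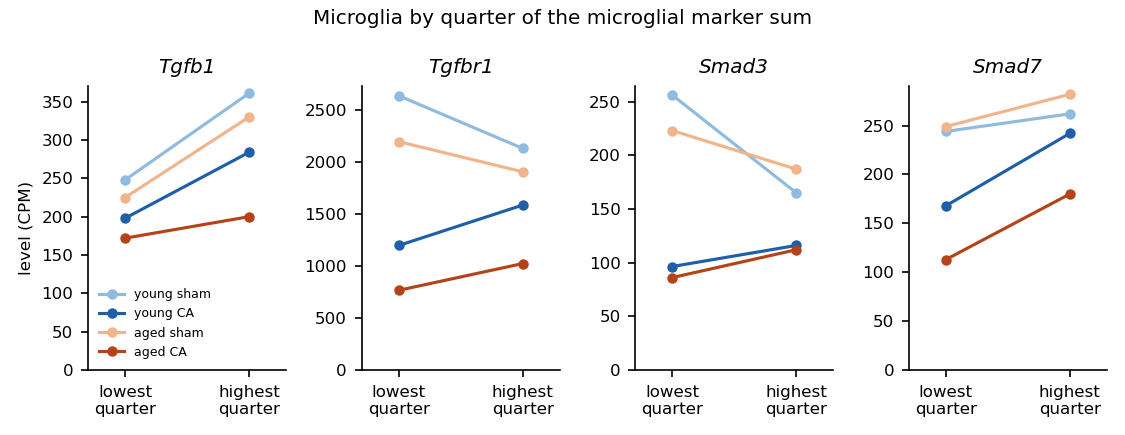
Level in CPM of Tgfb1, Tgfbr1, Smad3 and Smad7 in the 25% of microglia with the lowest and the highest summed level of microglial markers, with 1 line per library. For Tgfbr1 and Smad3 the sham lines slope down and the CA lines slope up, from 2636 to 2130 CPM in young sham and from 1197 to 1585 CPM in young CA for Tgfbr1.

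Microglia can enter states marked by dividing, interferon, chemokine or Spp1 and Lpl genes. Only microglia of at least 3000 UMIs were used, 6566, 7735, 3229 and 4488 cells. In each library the up to 10% of these cells with the highest summed level of a state's genes were set against the rest of them. This is a range of a score and not a cell type, with 1 to 237 cells within 10% of the limit. Tgfbr1 was lower in the high-scoring cells beyond counting error in 4 of 4 libraries for all 4 states. Its ratios were 0.473 to 0.878 for the Spp1 and Lpl state, 0.513 to 0.906 for the chemokine state, 0.556 to 0.887 for the interferon state and 0.752 to 0.967 for dividing cells. The lowest of these was in young CA, where Tgfbr1 stood at 717 CPM in the Spp1 and Lpl cells and 1514 CPM in the rest. In young sham the rest stood at 2402 CPM. The limit was set within each library, so the rest of young CA and of young sham were not matched in their level of state genes. In aged CA the lowest Tgfbr1 ratio was in the chemokine cells, at 494 against 962 CPM.

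Smad3 was lower in 4 of 4 libraries in the interferon cells (0.543 to 0.859) and in the Spp1 and Lpl cells (0.673 to 0.887). In the interferon cells so were Smad7 (0.752 to 0.919) and Tgfbr2 (0.688 to 0.933), and in the Spp1 and Lpl cells Ski (0.755 to 0.933). Nrros ran from 1.06 to 1.25 in the chemokine cells, above 1 beyond counting error in 2 of 4 libraries, and Tgfb1 stayed between 0.958 and 1.04 there. The high-scoring cells were often deeper, with medians of 15974 and 10876 UMIs in the Spp1 and Lpl cells and the rest of young CA, and the part of depth was not tested.

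Border-associated macrophages were described from far fewer cells, and their counts of called genes cannot be read as particular to the pathway. In young mice 1 of the 9 genes was called after CA (Smad7, from 4 and 12 UMIs), where 36.5% of all genes were called, and in aged mice 4 were (Tgfbr2, Smad3 and Nrros lower, Smad7 higher), where 54.9% were. Between the sham libraries 1 was called (Smad3, higher in aged) and between the CA libraries 3 (Tgfbr2 and Nrros lower in aged, Smad7 higher), where 41.8% and 43.8% of all genes were called. Nrros stood in these cells at 392 CPM in young sham against 404 in young CA, and at 564 in aged sham against 203 in aged CA, so the 2 young values differed by less than counting error and the aged sham value was highest. Its ratio was 1.03 (0.849 to 1.25) in young and 0.361 (0.285 to 0.455) in aged, from 178 UMIs in 28 aged sham cells and 127 in 68 aged CA cells. The ratio of the aged to the young response of Nrros was 0.350 (0.261 to 0.470).

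Tgfbr2 stood in border-associated macrophages at 500, 384, 542 and 252 CPM, with ratios of 0.769 (0.638 to 0.925) in young and 0.464 (0.371 to 0.580) in aged. Smad3 stood at 60.5, 41.0, 108 and 35.2 CPM, with ratios of 0.679 (0.372 to 1.20) and 0.327 (0.182 to 0.575). Both genes were lowest in aged CA and highest in aged sham. Tgfb1 differed by less than counting error at both ages, with 227, 222, 193 and 179 CPM and ratios of 0.979 (0.756 to 1.27) and 0.928 (0.673 to 1.29). Smad2, Ski and Skil had intervals that include 1 in all 4 comparisons of these cells. Smad7 rested on 4 to 17 UMIs, and its aged ratio was 1.72 (0.608 to 5.96).

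The aged CA border-associated macrophages also differed in their markers. The summed level of their own 9 markers was 6758 CPM in aged CA against 10470 to 12600 CPM in the other libraries, with 0 markers at 0 in each. The T cell list of 8 genes summed to 64.1 CPM there, with 0 at 0, against 0 to 3.17 CPM and 7 or 8 at 0 elsewhere. Microglial markers summed to 4830, 3106, 4179 and 1270 CPM. The part of these in the lower Nrros, Tgfbr2 and Smad3 of aged CA was not tested. With a stricter gate 24, 27, 7 and 39 of these cells were left.

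Microglial transcripts were present in the other classes, so levels there were set against a reference. The reference used P2ry12, Siglech, Tmem119 and Sall1, which were gate markers of microglia. Summed, they stood in border-associated macrophages at 13.3% to 17.4% of their microglial level. In T cells this share was 2.45% to 3.95%, and in neurons 2.11% to 5.69%. The same share of a gene's own microglial level is its reference in a class. Whether border-associated macrophages make these 4 transcripts themselves was not tested. Tgfbr1, at 252, 240, 190 and 269 CPM, was 0.684 to 1.68 times its reference, and above it beyond counting error in 1 of 4 libraries (aged CA). Smad7 was 0.268 to 1.03 times its reference and below it beyond counting error in 3 of 4, so this share did not hold for every gene. Nrros was 8.93 to 16.8 times its reference, Tgfb1 4.98 to 6.11 times and Tgfbr2 3.36 to 7.13 times, each above it in 4 of 4 libraries. The Tgfbr1 ratio after CA in these cells, 0.951 (0.742 to 1.21) in young and 1.41 (1.05 to 1.93) in aged, stands beside that reference, and what part of the Tgfbr1 in these cells came from microglia was not tested.

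Against border-associated macrophages, Tgfbr1 and Smad7 were the genes most in excess in microglia, and Nrros was lower. In the 4 libraries Tgfbr1 was 3.41 to 10.7-fold higher in microglia than in border-associated macrophages, and Smad7 5.59 to 23.9-fold, beyond counting error in 4 of 4. Smad7 was not highest in microglia among all classes: in aged CA oligodendrocytes it stood at 181 CPM (130 to 247), against 152 CPM in microglia. Smad3 was 1.85 to 3.38-fold, Ski 2.15 to 3.01-fold and Skil 2.59 to 3.74-fold higher, also in 4 of 4. The microglial level of Nrros was 0.415 to 0.642 of that in border-associated macrophages, lower in 4 of 4. Tgfbr2 was 1.02 to 1.71-fold and Tgfb1 1.03 to 1.47-fold, above 1 beyond counting error in 3 and 2 of 4 libraries, and Smad2 in 1.

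Monocytes or monocyte-derived macrophages, counted in the 3 libraries with at least 20 such cells, were set apart by low Tgfbr2. Young CA had 115 CPM of it, aged sham 76.4 and aged CA 64.6, so that microglia were 4.02 to 7.27-fold higher. Tgfbr1 stood there at 341, 134 and 123 CPM, with microglia 4.19 to 15.1-fold higher. It was 2.21 to 2.66 times the reference from the same 4 microglial markers, above it in 3 of 3 libraries. Tgfb1 stood at 325, 241 and 293 CPM, and the microglial level was 0.633 to 1.17 of it, lower beyond counting error in 2 of 3. Nrros stood at 221, 339 and 135 CPM.

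Between the ages after CA, Tgfbr1 in monocyte-class cells was at 0.361 (0.308 to 0.420) of its young level in aged CA, from 179 and 2400 UMIs. Smad7 was at 0.404, Smad3 at 0.489, Tgfbr2 at 0.560, Nrros at 0.612 and Ski at 0.666, while Tgfb1 was at 0.901 (0.811 to 1.0) and Smad2 at 1.03 (0.790 to 1.32). Of the 9 genes 6 were called lower, where 20.6% of all genes measured in this class were, and the median log2 ratio of the 9 was -0.71 against -0.06 for all genes. The young CA and aged CA cells numbered 359 and 60. Markers of other classes moved with this difference: the 8 neutrophil markers summed to 150 CPM in young CA and 878 CPM in aged CA (1 at 0 in each), the 12 microglial markers to 1452 and 547 CPM (0 at 0), and the class's own 8 markers to 11106 and 7864 CPM (0 at 0). Their part in the lower values of aged CA was not tested. No sham comparison was made in this class, because young sham held 15 such cells and aged sham 22.

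**Figure D4:**
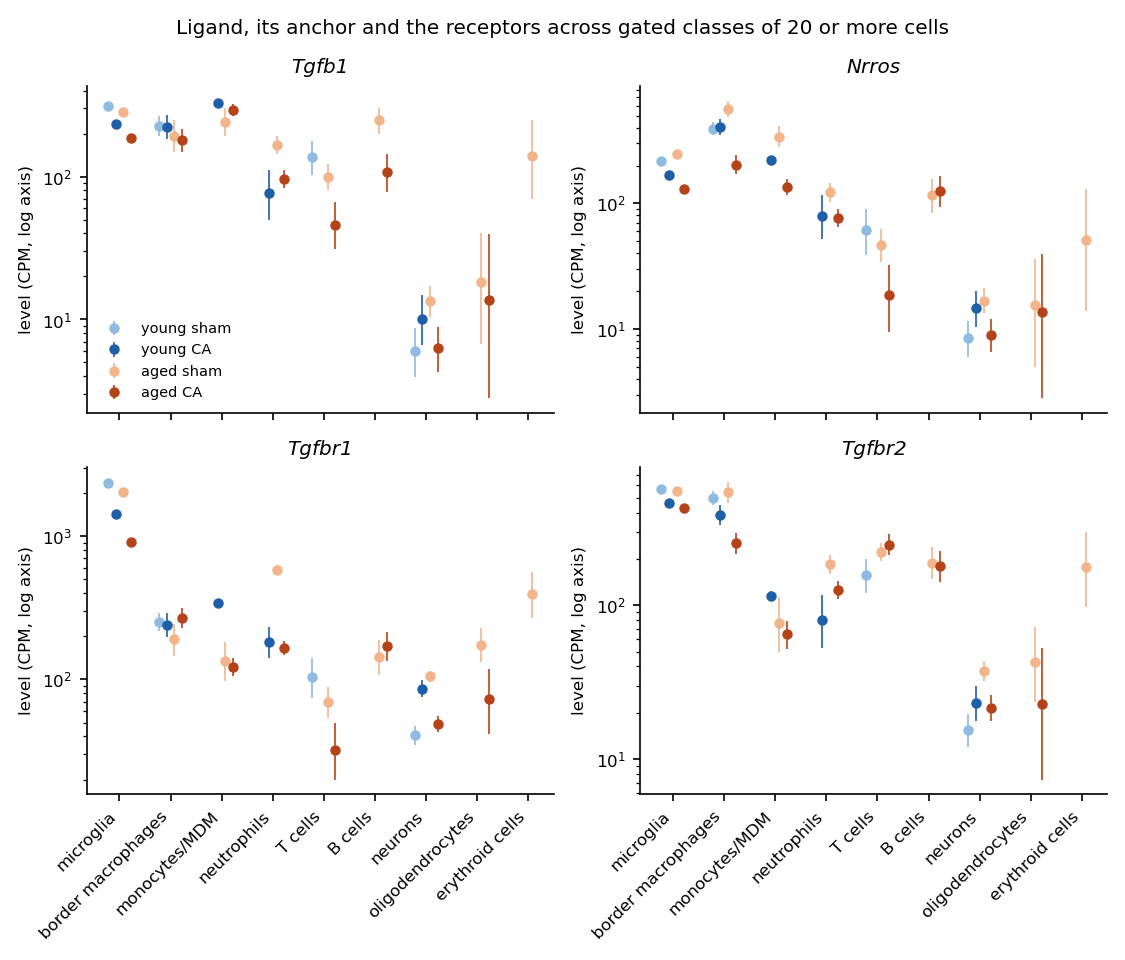
Level in CPM (log axis) of Tgfb1, Nrros, Tgfbr1 and Tgfbr2 in each gated class with at least 20 cells in a library, with exact Poisson 95% intervals and 1 colour per library (MDM, monocyte-derived macrophages). Tgfbr1 is highest in microglia in every library, at 917 to 2366 CPM, Nrros is highest in border-associated macrophages, at 203 to 564 CPM, and neurons are low in Tgfb1, at 6.02 to 13.5 CPM.

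Lymphocytes and neutrophils showed the pathway's parts in other mixes. T cells, whose Tgfbr2 is the receptor through which TGF-beta restrains them, held 157 to 248 CPM of Tgfbr2 in 3 libraries. This was 6.99 to 23.5 times the reference from the same 4 microglial markers. Their Tgfbr1, at 32.3 to 104 CPM, was 1.11 to 1.44 times its reference and above it beyond counting error in 0 of 3 libraries. Smad7 stood in T cells at 86.1 to 156 CPM, above the border-associated macrophage range of 8.64 to 27.2 CPM. B cells held 107 to 248 CPM of Tgfb1 and 116 to 126 CPM of Nrros in the 2 aged libraries. Aged sham neutrophils held 578 CPM of Tgfbr1, but the 4 microglial markers of the reference stood there at 38.3% of their microglial level. Tgfbr1 ran from 0.743 to 1.32 times its reference in neutrophils over 3 libraries. Neurons had 6.02 to 13.5 CPM of Tgfb1 and 94.3 to 139 CPM of Ski.

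The likeness of patterns was measured as Pearson's r of log2(CPM + 1) over 26 units, each 1 class in 1 library with at least 20 cells, among 10092 genes. The units share libraries and microglial transcripts, and the r values are a description. Among the genes most like Tgfbr1 were Epb41l2 and P2ry12 (0.95 each), of which P2ry12 was a gate marker. Among those most like Nrros were Ctsc and Ehd4 (0.93 each). Tgfb1 was most like Pcbp1, Syngr2 and Brk1 (0.96 each), and Tgfbr2 like Cd164, Fli1 (0.94 each) and Gpr183 (0.93). Among the 9 genes themselves the highest r was 0.91, between Tgfb1 and Nrros, followed by 0.83 for Tgfbr1 and Skil and 0.82 for Tgfb1 and Tgfbr2. The best matches of Skil (Ctsd, Havcr2 and F11r) reached 0.89. Those of Ski (Extl3, Dcakd and Fam91a1) reached 0.85 to 0.87, and those of Smad2 (Tmx3, Plekha2 and Prorsd1) 0.85 to 0.86. Smad3 (4933406I18Rik, Asb2 and Gm43821) had 0.80 to 0.82, and Smad7 (Arhgap27, Phgdh and Tuba1a) 0.76 to 0.81, the lowest of the 9.

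Microglial genes known to need TGF-beta were lower after CA along with the pathway's own parts. Of the 18 listed, 8 were called lower and 1 higher (C1qa, 1.56-fold) in young, with a median log2 ratio of -0.57, and 14 were called lower and 0 higher in aged, with a median of -1.10. Of all genes 10.7% were called lower in young and 18.2% in aged. The 12 gate markers of microglia are all on this list, and a cell with few of these transcripts could miss the gate. Of the 6 genes on it that were no gate marker, Crybb1 was called lower in young, and Crybb1, Golm1 and Pros1 in aged, Golm1, Pros1 and C1qa being named after their values were seen. Crybb1, a crystallin gene expressed by microglia, stood at 234, 144, 263 and 31.4 CPM over the 4 libraries. Slc2a5, a fructose transporter, stood 2.55 times below sham in young and 7.38 times below in aged mice. In the same libraries Olfml3 was 6.35 times lower in aged, and P2ry13 and Siglech were 2.36 and 2.20 times lower in young. Between the CA libraries 10 of the 18 were called lower in aged, where 8.85% of all genes were, among them Olfml3 (0.157), Crybb1 (0.218) and Fcrls (0.338).

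Microglial genes known to be held down by TGF-beta were mostly higher in CA than in sham microglia, and in aged than in young sham. In young, 9 of 11 measured were called higher and 1 lower (H2-Aa, named after its value was seen), with a median log2 ratio of 2.40, and in aged 8 of 13 were higher and 2 lower (H2-Aa and Ms4a7), with a median of 0.99. Of all measured genes 13.3% were called higher in young and 17.0% in aged. Spp1, the secreted protein osteopontin, went from 0.933 to 929 CPM in young, Lgals3 from 4.70 to 69.8 and the chemokine gene Ccl2 from 9.21 to 106. In aged, Ccl2 went from 24.9 to 563 CPM and Il1b from 10.2 to 55.1, while Ms4a7 went from 17.2 to 1.77. Ms4a7 was also a gate marker of border-associated macrophages. In sham, 11 of 12 of these genes were called higher in aged, with a median of 1.11, where 5.70% of all genes were called higher, 1.34% were called lower and the 9 pathway genes had a median of -0.03, and Spp1 was 24.2-fold higher (18.6 to 32.0). Between the CA libraries the list was split, with 3 of 12 called higher and 3 lower in aged and a median of -0.14. Of all genes 7.33% were called higher and 8.85% lower there. Spp1 was 8.82 times lower in aged CA (105 against 929 CPM). The 12 marker lists of other classes summed to 1.59 to 284 CPM each in microglia, with at most 3 markers of a list at 0, and astrocyte (271 to 284 CPM) and dendritic cell markers (182 to 229 CPM) were highest in most libraries. Several sums differed with the groups. Monocyte markers stood at 24.3, 106, 40.9 and 32.3 CPM, highest in young CA. Aged sham was highest for neuron markers (67.0, 42.1, 251 and 65.3 CPM), neutrophil markers (24.2, 12.1, 77.2 and 37.6 CPM), T cell markers (6.61, 2.57, 45.7 and 8.16 CPM) and erythroid markers (4.85, 3.28, 29.2 and 3.66 CPM). Their part in these lists was not tested.

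Genes listed as general transcriptional targets of TGF-beta were mostly higher in CA microglia. The list gives no direction in which TGF-beta moves each gene, and the part of TGF-beta in these levels was not tested. Of 8 measured, 5 were called higher and 1 lower at each age, with medians of 1.32 in young and 1.5 in aged, where 13.3% and 17.0% of all genes were called higher. Id2, an inhibitor of basic helix-loop-helix factors, had ratios of 4.91 (4.63 to 5.21) in young mice and 6.30 (5.95 to 6.69) in aged mice. Cdkn1a, the cell cycle inhibitor p21, was 7.84-fold and 4.25-fold higher. Tgfbi, which encodes a secreted matrix protein, was 3.70-fold higher in aged. Between the CA libraries 3 of 8 were called higher in aged, among them Id2 (2.40-fold) and Klf10 (1.96-fold), against 7.33% of all genes. In sham, Cdkn1a and Id2 were 2.16-fold and 1.87-fold higher in aged. The gene called lower was Tsc22d1, named after its value was seen, with ratios of 0.550 in young mice and 0.580 in aged.

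Of 8 other receptors of the family that were measured, 3 were called lower and 0 higher after CA at each age, where 10.7% of all genes were called lower in young and 18.2% in aged. The accessory receptor Eng stood at 86.6, 46.3, 71.4 and 31.9 CPM over the 4 libraries. Acvr1, a type I receptor, had CA to sham ratios of 0.655 (young) and 0.509 (aged), Acvr2a one of 0.599 in young and Acvrl1 one of 0.331 in aged mice. Aged CA stood below young CA for Acvrl1 (0.470) and Acvr1 (0.658).

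Of 7 measured genes that free or hold the latent ligand, 0 were called in young, where 24.0% of all genes were, and 3 lower and 2 higher in aged, where 35.2% were. The difference between ages was not tested. Itgb5, an integrin subunit, had 490 CPM in aged CA against 1103 CPM in aged sham, and aged CA was at 0.487 of young CA. The protease gene Plau was at 0.346 of sham in aged, and Mmp14, a membrane protease, was 2.76-fold higher. The other 2 called were the integrin subunit Itgav, at 0.616, and the protease Furin, at 1.5-fold, both named after their values were seen. In sham the integrin subunit Itgb3 was at 0.612 of its young level in aged.

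Among genes of receptor and Smad turnover, 2 of 13 were called lower in young (Usp11 at 0.447 and Ldlrad4 at 0.636 of sham) and 3 in aged, and 0 higher. This is close to the 10.7% of all genes called lower in young and 18.2% in aged. Ldlrad4, which limits Smad activation by receptors, had 709 CPM in aged CA against 1601 CPM in aged sham, and Pmepa1, a gene of like function, 391 against 860 CPM. Usp11, a deubiquitinase, was at 0.292 of sham in aged. Between the CA libraries Nedd4l, a ubiquitin ligase, was at 0.531 of young CA in aged. Of other Smads and co-factors 1 of 10 was called higher and 1 lower in young, and 2 of 9 each way in aged, beside 24.0% and 35.2% of all genes called in either direction: the co-repressor Tgif1 was 1.54-fold and 1.63-fold higher, Tgif2 was at 0.633 and 0.541 of sham, and Trim33, which binds Smad2 and Smad3, at 0.661 in aged. In the non-Smad arm 0 of 7 were called in young and 1 of 7 in aged, Map2k6 at 0.605.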

How the data were processed

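Gene by cell matrices of raw UMI counts, as deposited, were used for 4 libraries; the authors made the counts with Cell Ranger 7.1.0 on mm10, per the submitters' processing notes. Which annotation was used, and whether intronic reads were counted, is not given in the sources used here. Intronic counting would bear on long genes such as Smad3.

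Cells with at least 1000 UMIs and at most 10% mitochondrial UMIs were kept. A cell joined the class that held the most marker UMIs over 13 lists, given at least 3 different markers seen and at least 50% of all marker UMIs. This rule was set after seeing how many cells each class received. It left 1.07% to 3.97% of cells ungated. Between 38 and 204 microglia per library held 50% to 60%. Small classes had a larger part of their cells in this range. For border-associated macrophages it was 16 of 76, 9 of 56, 8 of 28 and 12 of 68. For monocyte-class cells it was 31 of 359 in young CA, 10 of 22 in aged sham and 6 of 60 in aged CA. For T cells it was 12 of 28 in young sham, 56 of 103 in aged sham and 23 of 74 in aged CA. No doublet caller was run, and cells with mixed markers could pass the gate. Microglia made up 81.9% to 95.2% of kept cells, over 33459103 to 101152905 UMIs per library.

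The counts of a class in a library were added up and divided by their total (CPM). Levels have exact Poisson intervals and ratios exact conditional binomial (Clopper-Pearson) intervals, at 95%. A gene was measured when it had at least 10 CPM in 1 of the 2 libraries and called at 1.5-fold. With 1 library per group no test was made. The intervals were run on counts simulated from the Poisson model that they assume. This checks the calculation and cannot show variation between cells or mice. Tools were Python 3.11.15, scipy 1.17.1, R 4.3.3 and edgeR 4.0.16, the last for TMM factors alone. Gene identifiers matched GENCODE M21 for 32158 of 32285 genes.

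The genes and lists were chosen with earlier results of these data known. All 9 genes were described in each comparison. Of each pathway list up to 3 called genes with the largest ratio per microglia comparison were named, and for each of the 9 genes the 3 with the highest r. Some genes that this rule names are not reported here. Alternatives were another scaling, a mean over cells, other limits on UMIs, mitochondrial share, CPM and fold, other gates, and leaving out the deepest cells.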

Additional observations from a re-analysis of the deposited data

How the results depend on the processing

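The sign of the log2 ratio stayed the same under all alternatives run for 28 of 36 values of the 9 genes in microglia and for 20 of 36 in border-associated macrophages. In microglia the young CA count of called genes was 2, and 1 with TMM scaling, with the mean over cells and with cells of 5000 to 10000 UMIs, a window chosen after seeing the data, and 0 at 2-fold. At 2-fold the aged CA count was 1 in place of 5, the count between the CA libraries 0 in place of 1, and the counts of other pathway genes 17 in young CA, 9 between the sham libraries and 13 between the CA libraries, in place of 32, 17 and 26. Of all genes, 24.0% were called at 1.5-fold in young CA, 35.2% in aged CA, 7.05% between the sham and 16.2% between the CA libraries. The shares at 2-fold and under the other alternatives are not reported here, so these counts cannot be read as particular to the pathway. In young the Tgfbr1 log2 ratio ran from -0.75 to -0.53 and that of Smad3 from -0.97 to -0.71. In aged Tgfbr1 ran from -1.20 to -0.90, Smad3 from -1.04 to -0.79, Nrros from -0.94 to -0.77 and Smad7 from -0.87 to -0.69.

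In border-associated macrophages the young CA count, 1 as reported, was 2 with TMM, with a minimum of 3000 UMIs and with cells of 5000 to 10000 UMIs, 4 with the stricter gate and 0 without the deepest cells. Between the sham libraries it was 1, and 4 with the mean over cells, 0 at 2-fold, 5 with the stricter gate (7 aged sham cells), and 3 without the deepest cells or with 5000 to 10000 UMIs. Between the CA libraries it was 3, and 1 at 2-fold and 7 with the stricter gate. Of all genes measured in these cells, 36.5% were called at 1.5-fold in young CA, 41.8% between the sham and 43.8% between the CA libraries. The shares under the alternatives are not reported here, so the counts in these cells cannot be read as particular to the pathway. The Smad7 log2 ratio turned to 0.02 in young with the mean over cells and to -0.97 in aged with 5000 to 10000 UMIs, from at most 17 UMIs. The cause of these changes was not tested. Values in these cells are limited by 28 to 76 cells per library. No paired analysis was possible because each group had 1 library.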
